A study of Mus musculus with 2 samples.

Results

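Mir221 and Mir222 are 2 neighbouring miRNA genes of mouse chromosome X, taken by their GENCODE M21 gene names from 2202 miRNA genes counted by microRNA sequencing in heart. Both hearts came from female B6CASTF1/J mice (a cross of C57BL/6J with CAST/EiJ) at 10 days of age, and the labels name no treatment, mutation or other group. There is 1 group of 2 hearts, labelled biological replicates 1 and 2, with 1 library each. The labels give each heart its own biosample and female number under a donor record that both share. They imply no contrast between conditions, so the measurements describe the level of the pair, the balance between its genes and the difference between the hearts.

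The genes lie close together and are usually described as products of a shared primary transcript. Their 3p strands carry the same seed, the bases that pair with target messenger RNAs. The pair is known for repressing Cdkn1b, an inhibitor of the cell cycle, and Kit, a receptor for stem cell factor. In vessels it has been linked both to restrained angiogenic behaviour of endothelial cells and to growth of smooth muscle cells.

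Mir221 (ENSMUSG00000065422.1) lies at chrX:19146294-19146388 and Mir222 (ENSMUSG00000065471.1) at chrX:19146893-19146971, both on the minus strand of mm10, with 504 bases between them. On that strand Mir222 comes first in the direction of transcription. No other M21 gene overlaps either, so both are intergenic in that annotation. The nearest M21 gene is the noncoding Gm14636, on the same strand and 10009 bases from Mir222, and the nearest protein-coding gene, Tex13c3, is 332448 bases from Mir222. RefSeq places the near end of Gm14636 (chrX:19156471-19237850) 9499 bases from Mir222.

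The mature forms are shown because the shared seed is what joins the pair and the other bases are what let reads tell them apart. They are from RefSeq on GRCm38.p6, written 5′ to 3′, with the seed (bases 2 to 8) in capitals:
miR-221-3p: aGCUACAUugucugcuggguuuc
miR-222-3p: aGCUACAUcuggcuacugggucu
miR-1928: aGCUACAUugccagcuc
miR-221-5p: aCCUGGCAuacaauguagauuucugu
Of 1738 mature forms in the RefSeq table, 3 held the seed GCUACAU: miR-221-3p, miR-222-3p and miR-1928, whose gene lies on chromosome 1. The 3p forms of the pair are both 23 nt long. They were identical over their first 8 bases and first differed at U9C, counted from the 5′ end with the base of miR-221-3p first. Without gaps, 11 of their 23 positions were identical. Past the seed, their longest common run was the 6 bases CUGGGU. The seed of miR-221-5p was held by no other mature form of the table. The entry for miR-222-5p was not in the table.

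The precursors are shown with those mature forms in capitals, since the count of a gene pools reads from both arms:
Mir221 hairpin: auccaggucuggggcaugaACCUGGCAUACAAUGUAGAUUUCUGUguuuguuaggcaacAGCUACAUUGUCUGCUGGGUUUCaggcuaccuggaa
Mir222 hairpin: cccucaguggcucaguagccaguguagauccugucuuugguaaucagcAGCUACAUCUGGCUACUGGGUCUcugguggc
They are 95 and 79 bases long, and their longest common run was the 9 bases CAGCUACAU, which contains the seed. The longest run that Mir221 shared with any of the 2201 other miRNA genes was 13 bases (with Mir7213 and Mir7672), and for Mir222 it was 12 (with Mir1251, Mir6957 and Mir7051). In contrast, 86 of the 375 genes whose counts summed to 20 or more over both libraries (22.9%) shared a run of 22 bases or more with another miRNA gene. Both strands were searched, so genes that overlap on opposite strands count as sharing a run. Such an overlap does not by itself place a read at more than 1 position. Reads placed at more than 1 position are not assigned to genes in these tables. Copies of the 2 hairpins outside annotated miRNA genes were not searched for.

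Reads on named miRNA genes numbered 4260561 in replicate 1 and 4583025 in replicate 2, of 10782737 and 10201509 reads in all. Multimapping reads made up 38.9% and 38.0%. At least 10 counts in each heart were found for 346 of 2202 genes. The heart muscle genes Mir499, Mir208a and Mir208b, which lie in myosin genes, had mean levels of 1144 to 4784 counts scaled to a common library total (CPM). The other 4 genes of the heart muscle list had low means, from 1.14 CPM (Mir133a-2) through 2.60 (Mir1a-1) and 5.18 (Mir133a-1) to 48.4 (Mir1a-2). All 4 share runs of 22 bases or more with another miRNA gene, so unassigned multimapping reads leave their levels uncertain. The 6 neuronal genes (Mir9 and Mir124a) all have such copies too, so their counts of 0 to 2 say nothing of the presence of neurons.

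Mir221 had 4889 counts in replicate 1 (exact 95% Poisson interval 4753 to 5028) and 2701 in replicate 2 (2600 to 2805). Mir222 had 554 counts in replicate 1 (509 to 602) and 207 in replicate 2 (180 to 237). Both genes had more counts in replicate 1, and neither gene's counting intervals, on unscaled counts, overlapped between the hearts. Differences beyond counting error were common: 207 of 375 genes tested (55.2%) passed the scaled test given below. The library total behind CPM is the counts on named genes. Mir221 stood at 1148 CPM in replicate 1 and 589 in replicate 2, a mean of 868 ± 395 (SD, n = 2). Mir222 stood at 130.0 and 45.2 CPM, a mean of 87.6 ± 60.0 (SD, n = 2). The SD was 45.4% of the mean for Mir221 and 68.5% for Mir222. Neither gene had a read on its opposite strand, and their counts were the same with and without regard to strand. The counts of the pair therefore did not depend on how strand was treated, but the library totals did. With counts taken without regard to strand, the mean was 1221 CPM for Mir221 and 122 CPM for Mir222.

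By mean CPM, Mir221 ranked 81 of 2202 genes (75 in replicate 1 and 90 in replicate 2) and Mir222 ranked 170 (152 and 194). The median of the 346 genes with at least 10 counts in each heart was 85.1 CPM, so Mir222 sat near the middle of the detected genes and Mir221 well above it. The genes next above Mir221 were Mir425 (874 ± 188 CPM), Mirlet7c-2 (988 ± 36.4) and Mir16-1 (989 ± 51.5). Next below it were Mir483 (836 ± 75.4 CPM), which lies in Igf2, Mir872 (762 ± 72.1) and Mir10b (704 ± 182), a miRNA of the Hox clusters. Mir222 had Mir184 (88.1 ± 10.8 CPM), Mir5099 (88.3 ± 23.1) and Mir708 (93.4 ± 9.94) next above it. Next below it were Mir1843b (86.8 ± 31.5 CPM), Mir186 (86.2 ± 12.3) and Mir345 (86.0 ± 12.7). The range over the hearts of each of these 12 genes overlapped that of the member beside it, so the order among them is not resolved by 2 hearts. Mirlet7c-2, Mir16-1, Mir1843b and Mir708 share runs of 23 bases or more with another miRNA gene, and their levels are uncertain.

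**Figure D1:**
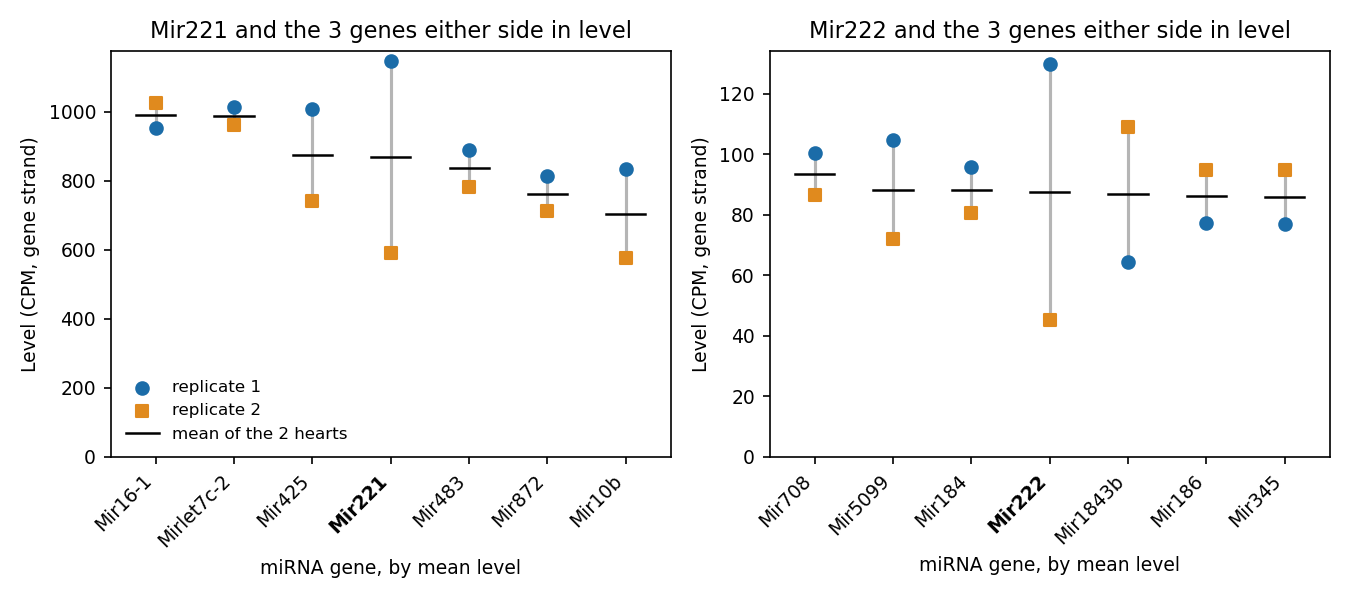
Level in CPM (vertical axes, from 0) of Mir221 (left) and Mir222 (right) and of the 3 genes on each side of them in mean level, with circles for replicate 1, squares for replicate 2 and bars for the mean of the hearts. Mir221 runs from 589 to 1148 CPM and Mir222 from 45.2 to 130.0 CPM, and each spans a wider range than the 6 genes plotted beside it.

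The gene counts of the seed group fell mostly on Mir221. Mir1928, its other gene, had 0 counts in both hearts. A fixed bound of 3 counts, which is not an exact interval, stands at 0.704 CPM in replicate 1 and 0.655 CPM in replicate 2. The listed mature form of Mir1928 is 17 nt long, and how well reads of that length are placed was not tested. Mir1928 also shares a run of 19 bases with Mir1957a, in a search of both strands. Whether that run covers the mature form was not tested, so its level is uncertain. Mir221 and Mir222 together stood at 1278 CPM in replicate 1 and 635 in replicate 2, a mean of 956 ± 455 (SD, n = 2). Mir221 held 89.8% of those counts in replicate 1 (exact Clopper-Pearson 95% interval 89.0 to 90.6) and 92.9% in replicate 2 (91.9 to 93.8). These intervals cover counting error only. Each gene's count pools both arms, so the share of reads that carry the seed was not measured.

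Within a heart, Mir221 exceeded Mir222 8.82-fold in replicate 1 and 13.0-fold in replicate 2, with exact 95% intervals of 8.08 to 9.65 and 11.3 to 15.1. The balance between the genes was thus further toward Mir221 in replicate 2, where both were lower, and these intervals do not overlap. The ratio was 1.48 times larger in replicate 2 (exact 95% interval 1.25 to 1.76, or 0.56 on the log2 scale), with Benjamini-Hochberg adjusted p = 7.27e-06 by Fisher's exact test on the counts of the 2 genes in the 2 libraries. This ratio needs no scaling between libraries. Like the other tests here, it compares 2 libraries and their counting error, not conditions. Ratios between different miRNAs also hold differences in ligation and mapping. The counts are per gene and not divided by length, though the 3p forms have equal length.

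The same was computed for all 93 pairs of adjacent miRNA genes on 1 strand with at most 10 kb between them and at least 20 counts over both libraries in each gene. Each ratio was taken as the gene with the higher mean over the other. The ratio differed between the hearts in 60 of the 93 pairs (64.5%), so a shift within a cluster was the common case and not particular to Mir221 and Mir222. The shift of the pair was near the middle of the pairs: 40 of 93, itself included, shifted by at least as much, and the median size was 0.46 (log2). Its mean log2 ratio of 3.42 ± 0.40 (SD, n = 2) was also moderate, with 35 pairs above it and a median of 2.70, or 6.49-fold. Mir93 over Mir25, of the Mir106b cluster, came next above it (15.1-fold and 8.42-fold), and Mir1a-2 over Mir133a-1, muscle genes with near-identical copies, next below (5.61-fold and 20.4-fold).

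**Figure D2:**
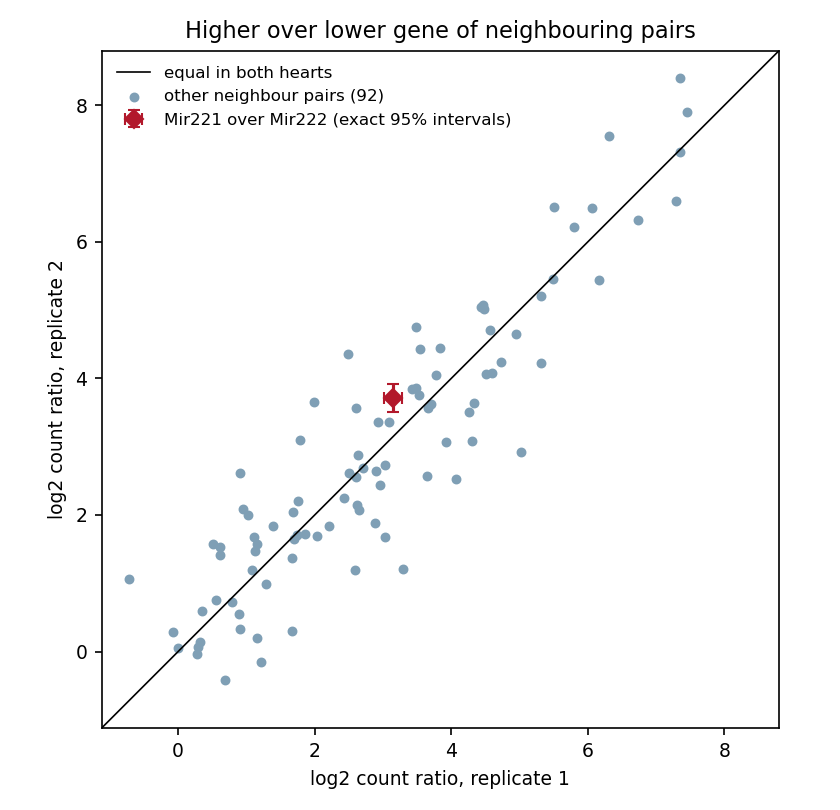
Log2 count ratio of the higher over the lower gene of 93 pairs of neighbouring miRNA genes in replicate 1 (horizontal axis) and replicate 2 (vertical axis), with the line of equal ratios. Mir221 over Mir222 (diamond, with exact 95% intervals) lies above the line, at 3.14 in replicate 1 and 3.71 in replicate 2, among other pairs that lie as far from it.

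Both genes were lower in replicate 2 after scaling by trimmed mean of M values (TMM) factors. The log2 ratio of replicate 2 over replicate 1 was -0.89 for Mir221 (exact 95% interval -0.96 to -0.83), or 1.86-fold higher in replicate 1, with adjusted p = 4.52e-153 by the exact binomial test. For Mir222 it was -1.46 (-1.70 to -1.23), or 2.75-fold higher in replicate 1, with adjusted p = 8.96e-39 by the same exact test. These p-values measure counting error only and with 2 libraries cannot separate an animal from its library. Of 375 genes tested, 207 (55.2%) passed this test, 109 of them (29.1%) toward replicate 1 and 98 (26.1%) toward replicate 2, so passing it does not set the pair apart. With all reads as library size the split was 75 toward replicate 1 and 120 toward replicate 2, and the median log2 ratio of all genes moved from -0.02 to 0.10. The direction of both members was the same under every scaling run.

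The size of their differences lay toward one end of the genes. Over the 375 genes the log2 ratio had a lower quartile of -0.37 and an upper quartile of 0.37. A log2 ratio below that of Mir221 was found in 27 of 375 genes (7.20%), and below that of Mir222 in 11 (2.93%). Among the 266 genes that summed to 100 counts or more, where counting error is smaller, 15 lay below Mir221 and 6 below Mir222. The 3 of them nearest to Mir221 in this ratio were Mir107 (-0.93), Mir433 (-0.84) and Mir199a-2 (-0.82), of which Mir107 and Mir199a-2 have near-identical copies. Nearest to Mir222 were Mir21a (-1.60), known from fibroblasts and injured tissue, Mir31 (-1.62) and Mir376c (-1.62, with a near-identical copy). Likeness here is the distance between single log2 ratios over 2 hearts, a weak measure.

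**Figure D3:**
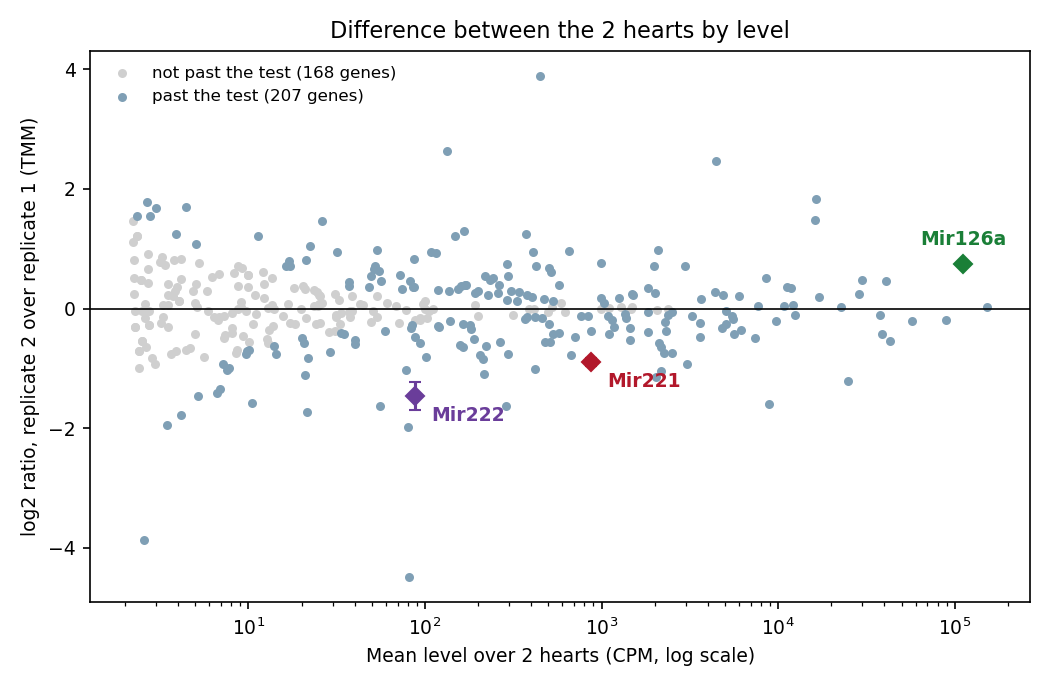
Log2 ratio of replicate 2 over replicate 1 (vertical axis) against mean CPM on a log scale (horizontal axis) for 375 genes, with exact 95% intervals on the 3 named genes (narrower than the symbol for Mir221 and Mir126a). Mir221 (-0.89) and Mir222 (-1.46) lie below the zero line and Mir126a (0.74) above it.

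Mir126a, the miRNA of the endothelial gene Egfl7, was set beside the pair, since whole hearts hold many cell types. Mir126b, the other gene of the endothelial list, had 3 counts in replicate 1 and 1 in replicate 2 and was not tested. It shares a run of 58 bases with Mir126a, in a search of both strands. In bulk tissue, fewer cells of a type and less RNA per cell cannot be told apart. Mir126a had 367778 counts in replicate 1 and 631815 in replicate 2, with a log2 ratio of 0.74 (0.74 to 0.75), so it was higher in the heart in which the pair was lower. It exceeded Mir221 75.2-fold in replicate 1 and 234-fold in replicate 2, with exact 95% intervals of 73.1 to 77.4 and 225 to 243. It exceeded Mir222 664-fold (611 to 723) and 3052-fold (2664 to 3515). The pair and Mir126a thus differed in opposite directions between these hearts. Over 2 hearts any 2 genes can only differ alike or oppositely, so this comparison cannot test the label endothelial. No cell type was sorted, so the cells that gave these reads were not identified.

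Marker genes of other cell types differed between the hearts as well, against a background of 29.1% of all tested genes higher in replicate 1 and 26.1% in replicate 2. The smooth muscle and mural genes Mir143 and Mir145a summed to 53735 CPM in replicate 1 and 35952 in replicate 2; Mir143 was higher in replicate 1 (-0.54), while Mir145a did not pass the test (-0.02). Of 7 heart muscle genes, 6 were tested, with 4 higher in replicate 1 and 1 in replicate 2, and the list summed to 9699 and 6596 CPM. Of 7 epithelial genes, 5 were higher in replicate 1 and 1 in replicate 2, with sums of 801 and 427 CPM. The 3 red cell genes were all higher in replicate 2 (550 and 1048 CPM in sum), as was the liver gene Mir122 (76.3 and 141 CPM). Of 5 white blood cell genes, 4 were tested and 2 were higher in replicate 2 (2295 and 2447 CPM), with Mir142b at 0 in both hearts. Of 4 fibroblast genes, 3 were tested, with 2 higher in replicate 2 and 1 in replicate 1 (4693 and 5228 CPM). Among the blood and fibroblast genes, Mir142, Mir142b, Mir451a, Mir486, Mir199a-1, Mir199a-2 and Mir199b share runs of 22 bases or more with another miRNA gene. That search covered both strands, so a gene that only overlaps another on the opposite strand is included. Such an overlap alone does not make a count uncertain. The part of these cell types in the level of the pair was not tested.

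Among 18 genes linked to angiogenesis and endothelium, 17 were tested. Of these, 8 were higher in replicate 1 (background 29.1%), the pair among them. Another 7 were higher in replicate 2 (background 26.1%) and 2 did not pass. The median log2 ratio of the 17 was -0.12 against -0.02 over all genes. By mean CPM, Mir221 was number 10 of the 18 and Mir222 number 17. Of the 17, Mir222 had the lowest ratio and Mir221 the next lowest, followed by Mir132 (-0.77). At the other end stood Mir296 (0.94) and Mir126a. The leading genes after Mir126a were Mir23b (40902 ± 7853 CPM, log2 ratio 0.46), Mir23a (29996 ± 6063, 0.48) and Mir27b (6008 ± 446, 0.22), all higher in replicate 2. Mir23a and Mir23b share a run of 20 bases, as do Mir27a and Mir27b. Reads that fall within such a run can be placed at both genes and are then not assigned. The list thus held genes that moved both ways, with the pair at one end.

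Genes linked to the growth state of vascular smooth muscle gave 12 tested of 13, of which 6 were higher in replicate 1 (background 29.1%) and 2 in replicate 2 (background 26.1%), while 4 did not pass, with a median log2 ratio of -0.15. Mir143 (42774 ± 12489 CPM) led this list, followed by Mir21a (8862 ± 6526), Mir145a (2069 ± 85.8) and Mir155 (1494 ± 125, higher in replicate 2 by 0.24). Mir21a, Mir31 and Mir26a-1 (-4.49) had lower ratios than Mir222, and Mir133a-1 had -1.46 (exact 95% interval -2.59 to -0.51). Mir26a-1 and Mir133a-1 have near-identical copies. The Mir17 family clusters are known for driving proliferation. Of their 15 genes 11 were tested, with 3 higher in each heart, near the background of 29.1% and 26.1%, and 5 that did not pass. Their log2 ratios ran from -0.50 to 0.67, with a median of -0.17. Their leading genes were Mir93 (5585 ± 648 CPM, -0.17), Mir17 (3628 ± 945, -0.47), Mir92-1 (1995 ± 185, 0.26, with a near-identical copy) and Mir20a (1171 ± 214, -0.31). None of the 11 had a ratio below that of Mir221.

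Both genes lie on chromosome X, which carries 142 of the miRNA genes, 34 of them with at least 10 counts in each heart. By mean CPM, Mir221 was number 10 of these 142 and Mir222 number 20. The X-linked genes with the highest levels were Mir322 (12426 ± 1089 CPM), Mir652 (10760 ± 86.1), Mir351 (6121 ± 1246) and Mirlet7f-2 (5068 ± 795, with a near-identical copy). Of 35 tested, 14 (40.0%, against 29.1% over all genes) were higher in replicate 1, the pair among them. Another 5 of the 35 were higher in replicate 2 (background 26.1%) and 16 did not pass. The median log2 ratio was -0.11 over the 35, against -0.02 over all genes. Mir222 had the lowest ratio of the 35. Only 1 other X-linked gene tested lay below Mir221, Mir201, at -0.92 from 41 and 22 counts. The counts hold no allele information, so the C57BL/6J and CAST/EiJ copies of the locus were not told apart.

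**Figure D4:**
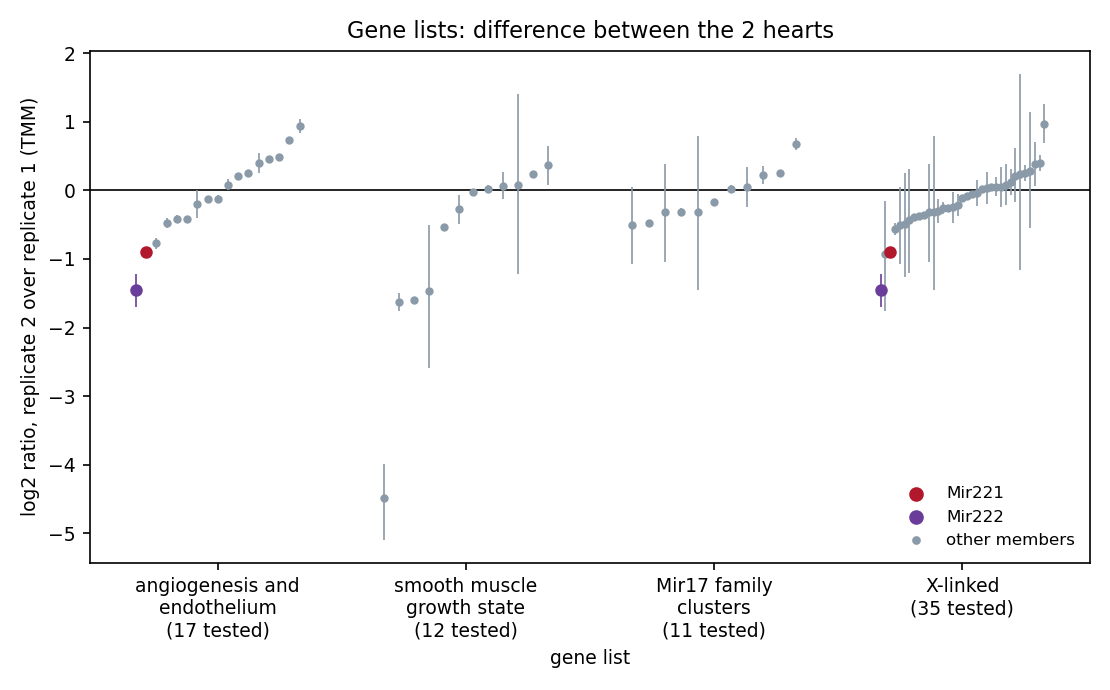
Log2 ratio of replicate 2 over replicate 1 (vertical axis) of each tested member of 4 gene lists (horizontal axis), sorted within each list, with exact 95% intervals as vertical lines. Mir222 (-1.46) and Mir221 (-0.89) lie at the low end of the angiogenesis list (17 tested) and of the X-linked list (35 tested).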

How the data were processed

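The deposited values are raw read counts per gene, which the authors made from each library's reads on mm10 with annotation M21, per the file headers. The aligner is not given in the sources used here, nor is the counting program. Inserts under 30 nt were sequenced, per the labels. All 2202 gene IDs matched M21. The gene-strand column was used; category rows stayed out of library sizes. edgeR 4.0.16 (R 4.3.3) gave TMM factors; the prior count was 0.5. Genes that summed to 20 counts or more had an exact two-sided binomial test between the libraries, and each neighbour pair a two-sided Fisher's exact test, with Benjamini-Hochberg adjustment over all tested, called under 0.05. edgeR's quasi-likelihood test had no contrast to fit. Both tests were tested on simulated counts with known changes. Those counts held counting error only, so that check does not cover variation between animals. Python 3.11.15 and scipy 1.17.1 were used. The members and lists were chosen with earlier results of these data known. Named genes were the members, Mir126a, same-seed genes, the 3 nearest genes in level on each side and the 3 nearest in ratio (summed count of 100 or more), the 4 leading members of lists and the adjacent pairs in ratio; other genes named were chosen after their values were seen. A gene with a run of 22 bases or more in another miRNA gene, on either strand, was called near-identical. The alternatives tried were size factors from DESeq2 1.42.0, the column without regard to strand, other denominators and other minimums. No molecular identifiers are described, so reads need not be independent molecules.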

Additional observations from a re-analysis of the deposited data

How the results depend on the processing

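Of 51 values under alternatives for 9 results, 6 leave out a heart, and of the other 45, 44 kept their direction and side of the threshold or stayed within 1 SD (levels) or 1.5 times (counts). With all reads as the denominator the level of Mir221 was 359 CPM, against 868, and that of Mir222 was 35.8 CPM, against 87.6 and still within its larger SD, since that denominator also holds multimapping and unmapped reads. Leaving out a heart gave 589 to 1148 CPM for Mir221, 45.2 to 130.0 CPM for Mir222 and a mean log2 ratio of 3.14 to 3.71 for Mir221 over Mir222; with 2 hearts such values cannot move by more than 1 SD and say nothing of stability. Over the 7 other settings, the log2 ratio of replicate 2 over replicate 1 ran from -0.96 to -0.78 for Mir221 and from -1.52 to -1.34 for Mir222. DESeq2 gave both libraries a size factor of 1. No paired analysis was possible because all samples form 1 group. Depth limits Mir222 more than Mir221, with 207 counts at its lowest.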
